A study of Mus musculus with 6 samples.

Results

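The genes described are 10 adipocyte regulators and lipid-storage genes, chosen by name for their place in fat cell formation and for the fat loss that some lamin mutations cause. They were read in primary mouse fibroblasts that carry Delta9, an allele of the lamin A and C gene Lmna, and in wild-type (WT) fibroblasts. Of the 10, 9 have a probe set annotated to that gene alone, out of 18193 genes measured in all: Pparg, Cebpa, Cebpb, Cebpd, Fabp4, Adipoq, Lpl, Plin2 and Cd36. Plin1 was not analysed here. Each gene was read on the probe set with the highest mean over the arrays.

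Each group held 3 samples, 1 Affymetrix array each, and values are log2 signal as deposited. Both groups came from sibling-derived fibroblast lines of mixed C57bl6X129S3/J background, at passage 3 and after 72 hours without serum. The labels describe the cells as adult, whereas the series design text has post-natal, and no age in days or weeks was found. Delta9 differed from WT by the Lmna allele, whose zygosity the labels do not give. The series design text speaks of independent replicates. How many animals they came from is not given in the sources used here. Whether the sample-to-sample spread behind the p-values is spread between animals is therefore not known. The number of arrays limits the precision.

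Fat cells form when fibroblast-like precursors switch on a chain of transcription factors. C/EBPbeta and C/EBPdelta act early and induce PPARgamma and C/EBPalpha, which then hold each other on and switch on genes of fatty acid uptake, binding and storage. Inherited LMNA mutations cause familial partial lipodystrophy, in which fat under the skin of the limbs is lost. Several of these genes are not restricted to fat: macrophages that take up lipid also express Pparg, Cd36, Lpl, Fabp4 and Plin2.

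The cultures carried strong signal of both fibroblast and macrophage markers. The mean level of 10 fibroblast markers, such as Col1a1, lay between 10.32 and 10.47 in Delta9 and between 10.56 and 10.88 in WT. Of these 10, 9 had a lower group mean in Delta9 and 1 a higher one, with a median difference of -0.25. For 3 of them the unadjusted p was under 0.05 (limma), all lower, against 6.06% of all genes. The part of this lower fibroblast signal in the differences below was not tested. The mean of 24 macrophage markers lay between 9.51 and 10.25 in Delta9 and between 7.36 and 9.55 in WT. All 24 had a higher group mean in Delta9, with a median difference of 1.14, and 0 passed the adjusted threshold (limma). An unadjusted p under 0.05 was found for 7 of the 24, all higher, against 4.54% of all genes. Each of these markers was lowest in WT replicate 3, so they are not 24 separate observations. The lists were also chosen with earlier results of these data known. Relative to its mean over the 6 arrays, the macrophage mean was 0.37 in Delta9 replicate 1, 0.33 in replicate 2 and 1.08 in replicate 3. The WT values, replicates in the same order, were 0.37, -0.34 and -1.82. Delta9 replicate 3 was therefore the array richest in this signal and WT replicate 3 the poorest. A sign of RNA quality, the 3' minus 5' signal of the beta-actin control probe sets, was 0.68, 0.51 and 0.84 in Delta9 and 0.86, 0.82 and 1.41 in WT. For Gapdh it was 0.25, 0.23 and 0.57 against 0.57, 0.49 and 0.51. Both were thus lowest in Delta9 replicates 1 and 2, and their part in the differences below was not tested. Lmna, read as a check of the labels, was lower in 3 of 3 Delta9 samples on its brightest probe set (-1.96, SE 0.28, limma adjusted p 0.0899). In a fit over all probe sets with 1 gene symbol, its probe set 1457670_s_at differed by -3.42 (SE 0.22, limma adjusted p 0.00401). In the same fit 1425472_a_at differed by -2.05 (SE 0.32, limma adjusted p 0.139). The dimmer 1426868_x_at and 1452212_at differed by -0.54 (SE 0.17) and 0.22 (SE 0.16). The positions of the Lmna probe sets relative to the Delta9 alteration are not known here.

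Against WT, 8 of the 9 adipocyte genes had a higher mean in Delta9 and Cebpd had a lower one, with a median difference of 0.54 against -0.01 over all 18193 genes. None of the 9 passed an adjusted p of 0.05 (limma, Benjamini-Hochberg over all genes; 3 at an unadjusted p under 0.05). Over all genes 0.0605% passed the adjusted threshold, 0.0055% as higher and 0.055% as lower. The share with an unadjusted p under 0.05 was 10.6%, made up of 4.54% with higher and 6.06% with lower values. The 3 were Fabp4 and Plin2, higher in Delta9, and Cebpd, lower. For these 3 the groups did not overlap, as was the case for 17.3% of all genes, 7.27% with higher and 9.99% with lower values in Delta9. The lowest adjusted p among the 9 was 0.215.

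**Figure D1:**
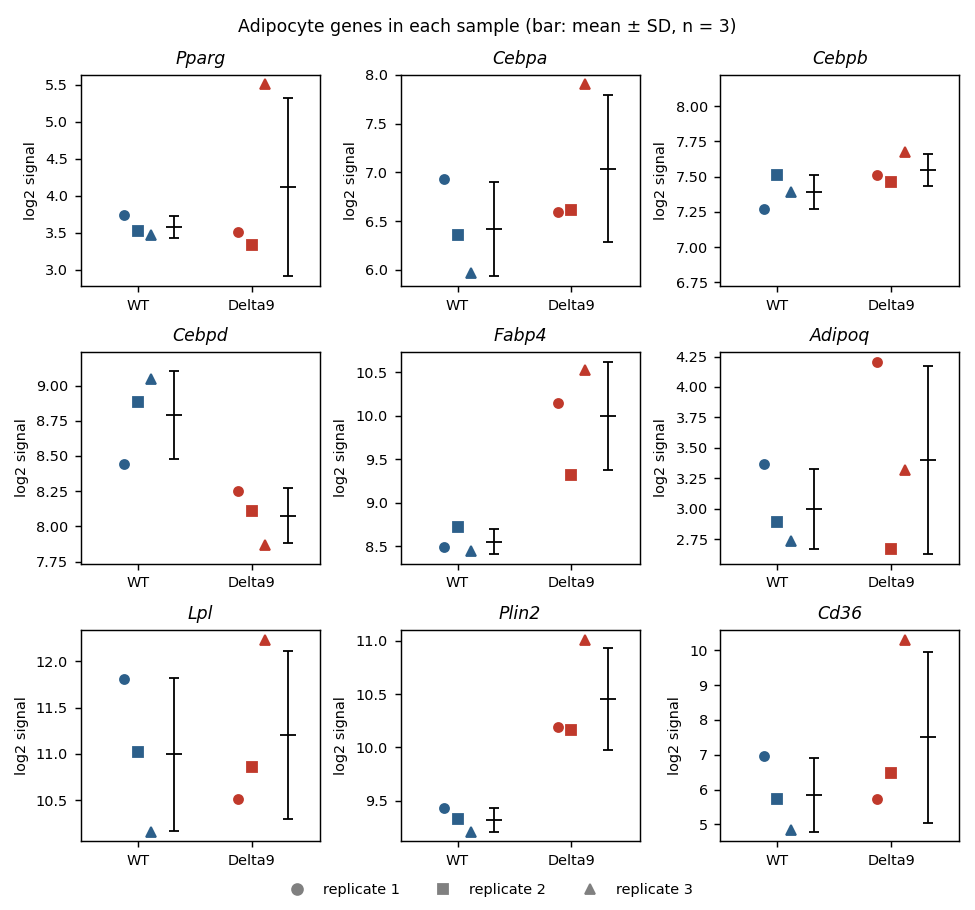
Log2 signal of each adipocyte gene in the 3 WT (blue) and 3 Delta9 (red) samples, with the marker shape giving the replicate number and bars the mean ± SD (n = 3). Fabp4 and Plin2 are higher in every Delta9 sample than in any WT sample and Cebpd is lower. Pparg, Cebpa, Cebpb, Fabp4, Lpl, Plin2 and Cd36 are all highest in Delta9 replicate 3.

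Pparg, the nuclear receptor that directs fat cell formation, gave a low signal in 5 of the 6 samples. In Delta9 it read 3.51, 3.33 and 5.51, given here and below in the order of the replicate numbers, and in WT 3.74, 3.53 and 3.47. Delta9 replicate 3 stood alone, 2.09 above the mean of the other Delta9 samples, whose values lay within or below the WT range. The difference was 0.54 (SE 0.53, 95% interval -0.72 to 1.80, limma adjusted p 0.753). Without Delta9 replicate 3 it was -0.15 (SE 0.14, limma adjusted p 0.670), so its sign rested on that sample.

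Cebpa encodes C/EBPalpha, the factor that sustains Pparg expression in the fat cell. It read 6.60, 6.61 and 7.91 in Delta9, against 6.93, 6.36 and 5.97 in WT. The groups overlapped, because WT replicate 1 lay above Delta9 replicates 1 and 2. Cebpa differed by 0.62 (SE 0.40, 95% interval -0.33 to 1.57, limma adjusted p 0.628), and by 0.18 without Delta9 replicate 3.

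The early factor C/EBPbeta, encoded by Cebpb, was level across the samples. It read 7.51, 7.46 and 7.68 in Delta9 and 7.27, 7.51 and 7.39 in WT. The difference was 0.16 with a 95% interval of -0.16 to 0.48, and the groups overlapped (SE 0.14, limma adjusted p 0.715). The dimmer second probe set of Cebpb, 1427844_a_at, differed by 0.37 (SE 0.19).

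Cebpd, encoding the other early factor, was the member with lower values in Delta9. It read 8.25, 8.11 and 7.87 in Delta9 against 8.44, 8.88 and 9.05 in WT. Every Delta9 sample lay below every WT sample, by 0.19 at the closest. The group means were 8.08 ± 0.19 and 8.79 ± 0.31 (SD, n = 3), a 1.64-fold lower mean in Delta9 (-0.71, SE 0.19, 95% interval -1.17 to -0.26, limma adjusted p 0.293). Its dim second probe set, 1456605_at, differed by -0.24 (SE 0.15). With each sample left out in turn the difference of Cebpd ran from -0.89 to -0.58. The 2 early factors thus had differences of opposite sign, and neither passed the adjusted threshold.

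Lpl encodes lipoprotein lipase, which frees fatty acids from circulating triglyceride. Its signal was high in all samples, at 10.52, 10.86 and 12.23 in Delta9 and 11.80, 11.02 and 10.16 in WT. The samples of the groups were interleaved, with the lowest value in WT replicate 3 and the highest in Delta9 replicate 3. Lpl differed by 0.21 (SE 0.53, 95% interval -1.05 to 1.47, limma adjusted p 0.916). The sign turned without Delta9 replicate 3 (-0.31) and without WT replicate 3 (-0.21). Its second probe set, 1431056_a_at, had its highest value, 9.46, and its lowest, 6.51, in the same samples.

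Cd36, a scavenger receptor and fatty acid transporter, spanned the widest range of the 9 genes, 5.46 log2 units. It read 5.73, 6.48 and 10.31 in Delta9 and 6.95, 5.73 and 4.85 in WT. Delta9 replicate 3 was 4.20 above the mean of the other Delta9 samples, and these overlapped the WT values. The difference of 1.66 had an SE of 1.16 (95% interval -1.07 to 4.39, limma adjusted p 0.652). Without Delta9 replicate 3 it was 0.26 (SE 0.58, limma adjusted p 0.875). All 3 probe sets of Cd36 had their highest value in Delta9 replicate 3, at 10.31, 8.92 and 7.52.

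Fabp4 encodes a fatty acid binding protein of fat cells and macrophages that carries fatty acids inside the cell. It read 10.15, 9.32 and 10.53 in Delta9 and 8.50, 8.72 and 8.45 in WT. The groups did not overlap, and the Delta9 samples varied more than the WT samples. The means were 10.00 ± 0.62 and 8.56 ± 0.14 (SD, n = 3), a 2.72-fold higher mean in Delta9 (1.44, SE 0.29, 95% interval 0.75 to 2.13, limma adjusted p 0.215). The second probe set, 1451263_a_at, gave 1.41 (SE 0.30). The 2 dim ones, 1425809_at and 1424155_at, gave 0.24 (SE 0.26) and 0.03 (SE 0.21), so averaging all 4 probe sets reduced the difference to 0.78.

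Plin2 encodes perilipin 2, a coat protein of lipid droplets found in most cell types that store lipid. It read 10.19, 10.17 and 11.01 in Delta9 and 9.43, 9.33 and 9.21 in WT. The groups were separated by 0.74 at the closest, and the WT samples lay within 0.22 of each other. The means were 10.46 ± 0.48 and 9.32 ± 0.11 (SD, n = 3), a 2.20-fold higher mean in Delta9 (1.13, SE 0.23, 95% interval 0.59 to 1.68, limma adjusted p 0.219). Without Delta9 replicate 3, its most distant sample, the difference of Plin2 was smaller, 0.86, but its SE fell to 0.11 and it passed the threshold (limma adjusted p 0.0487). In that fit 81 of all genes passed, against 11 with all samples. With any other sample left out it did not pass.

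Adipoq, the gene of the fat cell hormone adiponectin, gave a dim signal in all 6 samples, at 4.21, 2.67 and 3.32 in Delta9 and 3.37, 2.89 and 2.74 in WT. The highest and the lowest value both came from Delta9. The difference was 0.40 (SE 0.37, 95% interval -0.47 to 1.27, limma adjusted p 0.738), and -0.00 without Delta9 replicate 1. Of the other defining fat cell markers measured, Cidec and Lep were dim as well and Retn, the gene of resistin, was brighter. Cidec, a lipid droplet protein of fat cells, had equal means of 2.28 and 2.28. Lep, the gene of leptin, read 2.20 ± 0.04 in Delta9 and 2.41 ± 0.08 in WT (SD, n = 3). Retn read 4.04 ± 0.12 in Delta9 and 4.39 ± 0.19 in WT (SD, n = 3). The mean signals of Cidec, Lep and Retn stood at percentiles 7.77, 8.44 and 44.2 among all genes, a measure of probe brightness and not of transcript number. The table holds no detection calls, so whether these genes were expressed could not be read from it.

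**Figure D2:**
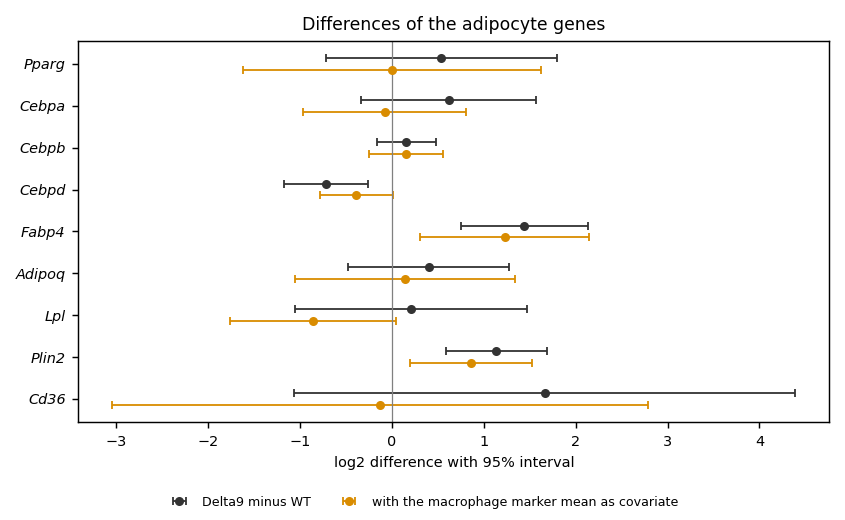
Log2 difference of Delta9 minus WT for each adipocyte gene with its 95% interval (black), and the same with the mean of the macrophage markers per array as a covariate (orange). Fabp4 and Plin2 keep positive differences under both, while Cd36, Cebpa and Pparg lie close to 0 with the covariate and Lpl turns to -0.86.

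Several of the genes varied along with the macrophage markers. With their mean per array as a covariate, the difference of Pparg was 0.00 (SE 0.67), that of Cebpa -0.08 (SE 0.37), that of Cd36 -0.13 (SE 1.21) and that of Lpl -0.86 (SE 0.38). Fabp4 kept 85.1% of its difference (1.23, SE 0.38), Plin2 76.1% (0.86, SE 0.27) and Cebpd 54.4% (-0.39, SE 0.16), and the adjusted p of these 3 lay between 0.449 and 0.473 (limma). On 3 arrays the macrophage mean was nearly equal, 0.33 to 0.37: Delta9 replicates 1 and 2 and WT replicate 1. Among them Plin2 read 10.19 and 10.17 in Delta9 against 9.43 in WT, and Fabp4 read 10.15 and 9.32 against 8.50. Cebpd read 8.25 and 8.11 against 8.44. Lpl read 10.52 and 10.86 against 11.80, Cd36 read 5.73 and 6.48 against 6.95, and Cebpa read 6.60 and 6.61 against 6.93. At a like macrophage signal the 2 Delta9 samples were thus above the WT sample for Plin2 and Fabp4, and also Cebpb, and below it for Cebpd, Lpl, Cd36, Cebpa and Pparg. Adipoq lay on both sides. With 1 WT sample there is no test. These 3 arrays were not alike in other respects. Their poly-A spike-in signal, from transcripts added to the RNA before labelling, was 6.10 and 6.07 in Delta9 against 4.85 in WT. Their 3' minus 5' signal of Gapdh was 0.25 and 0.23 against 0.57. In bulk RNA, a larger number of macrophages and more RNA of these genes per cell cannot be told apart.

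**Figure D3:**
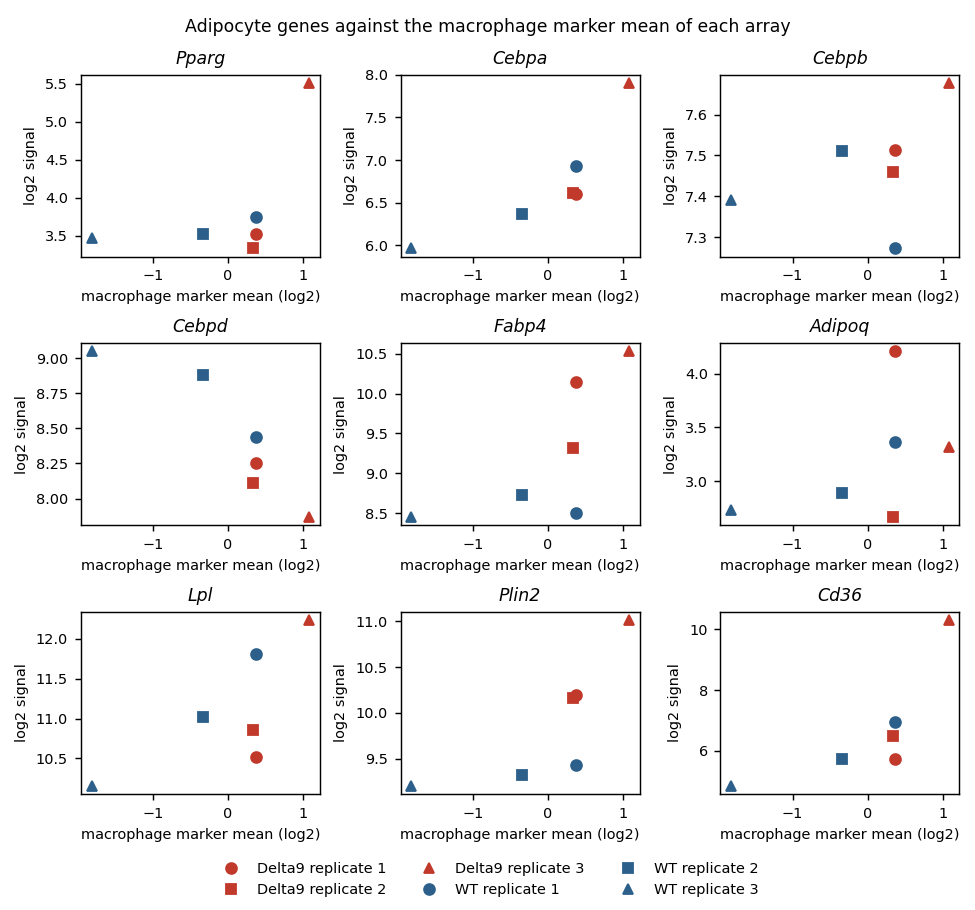
Log2 signal of each adipocyte gene against the mean of the 24 macrophage markers on the same array, relative to the 6-array mean (log2), for 3 Delta9 (red) and 3 WT (blue) samples. Cebpa, Fabp4, Lpl, Plin2 and Cd36 are highest on the array of highest macrophage mean, 1.08, and lowest on that of the lowest, -1.82. Among the 3 arrays between 0.33 and 0.37, the Delta9 samples are above the WT sample for Plin2, Fabp4 and Cebpb, below it for Pparg, Cebpa, Cebpd, Lpl and Cd36, and on both sides of it for Adipoq. That WT sample has the lowest poly-A spike-in signal of all arrays.

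Markers of other cell types had smaller median differences than the macrophage markers. The median was 0.12 for endothelial, -0.14 for epithelial, -0.10 for mature adipocyte and -0.25 for fibroblast markers. The mean of 11 endothelial markers, named because capillary endothelium also expresses Cd36 and Fabp4, lay between 4.51 and 5.12 in Delta9 and between 4.43 and 4.88 in WT. In Delta9 replicate 3, the sample of highest Cd36 and Fabp4, this mean was 4.51, and its members did not all go the same way there. Vwf (5.74) and Tek (4.65) had their highest values in that sample. More of the markers had their lowest there: Pecam1 (3.24), Cdh5 (4.04), Flt1 (4.90), Emcn (3.76), Esam (3.99) and Tie1 (3.13). The highest endothelial mean, 5.12, was that of Delta9 replicate 1, where Fabp4 read 10.15 and Cd36 5.73. In Delta9 replicate 2 the mean was 4.83, with Fabp4 at 9.32 and Cd36 at 6.48. The part of endothelial cells in the Cd36 and Fabp4 values was not tested. The mean of 6 epithelial markers lay between 3.30 and 3.36 in Delta9 and between 3.47 and 3.58 in WT. All 6 had a lower group mean in Delta9. The 4 measured markers of mature adipocytes averaged 2.77 to 3.25 in Delta9 and 2.95 to 3.11 in WT.

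Delta9 replicate 3 and WT replicate 1 also had the lowest poly-A spike-in signal, 5.20 and 4.85 against 5.64 to 6.10 on the other 4 arrays. These transcripts are added to RNA before labelling. With this split as a block, chosen after the data were seen, Plin2 and Cebpd passed (limma adjusted p 0.0292 and 0.0423) and Fabp4 did not (0.0645). The background rose too, to 149 genes in place of 11. Within the 4 other arrays Plin2 differed by 0.91 and passed (limma adjusted p 0.0385), as did 61 of all genes. Fabp4 differed there by 1.15 and Cebpd by -0.78. Between the remaining pair, Plin2 differed by 1.58, Fabp4 by 2.03, Cebpd by -0.57, Cd36 by 3.35 and Pparg by 1.77, with no test. Pparg had a difference of -0.07 within the 4 arrays, so its positive difference lay in that pair.

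**Figure D4:**
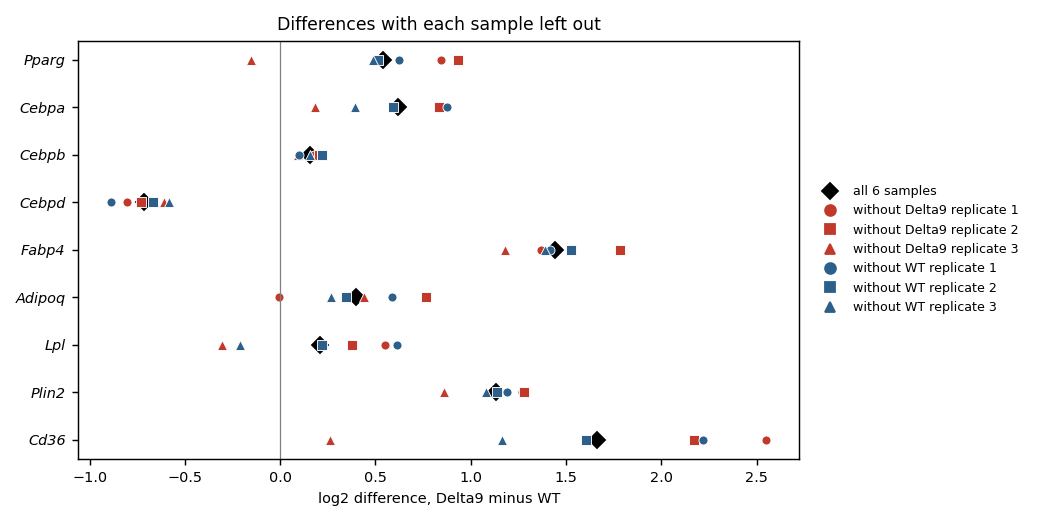
Log2 difference of Delta9 minus WT for each adipocyte gene over all 6 samples (black diamond) and with each sample left out (red for Delta9, blue for WT, marker shape by replicate number). Fabp4 and Plin2 stay above 0.85 and Cebpd below -0.58, whereas Pparg and Lpl cross 0 and Cd36 runs from 0.26 to 2.55.

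The wider adipocyte and lipid programme was read from 6 further lists, of which 97 of 103 genes were measured. None of the 97 passed the adjusted threshold (limma), against the same background of 0.0605%. An unadjusted p under 0.05 was found for 12 of the 97, of which 3 were higher and 9 lower. Over all genes the shares were 4.54% with higher and 6.06% with lower values. Higher means were found for 43 and lower means for 54, with a median of -0.06. The medians of the single lists ran from -0.22 to 0.03.

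Among 23 further adipogenic factors and coactivators, 11 had higher and 12 lower means, with a median of -0.02. Tle3, a cofactor of PPARgamma, read 7.83 ± 0.08 in Delta9 and 7.39 ± 0.09 in WT (SD, n = 3), a difference of 0.43 (SE 0.13). Zfp467, a zinc finger protein that favours fat over bone formation, differed by 0.39 (SE 0.15). Ebf1 and Zfp423, factors of early commitment to the fat lineage, differed by -0.79 (SE 0.34) and -0.35 (SE 0.16). Ebf1 passed, as lower, among the 4 arrays named above alone (limma adjusted p 0.0465).

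Of 17 measured inhibitors of fat cell formation, 12 had lower and 5 higher means, with a median of -0.22, and the groups did not overlap for 5 of them, all lower. Over all genes the groups did not overlap as lower for 9.99%. Zfp521, a zinc finger protein that represses Zfp423, read 6.29 ± 0.16 in Delta9 and 7.14 ± 0.27 in WT (SD, n = 3), a difference of -0.86 (SE 0.18, limma adjusted p 0.222). Sox9, which holds precursors undifferentiated, differed by -0.52 (SE 0.16). Dlk1, the preadipocyte protein Pref-1, had a value of 7.96 in Delta9 replicate 3 and values from 3.89 to 4.85 in the other 5 samples. Ddit3, a stress-induced inhibitor of C/EBP factors, differed by 0.31 (SE 0.24).

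Genes of fatty acid uptake and triglyceride synthesis had a median of 0.03 over 19 genes, 11 higher and 8 lower. Fabp5, a relative of Fabp4 that macrophages and skin cells express, read 11.88 ± 0.41 in Delta9 and 11.22 ± 0.14 in WT (SD, n = 3), a difference of 0.66 (SE 0.20, limma adjusted p 0.343). Gpihbp1, which anchors lipoprotein lipase on capillaries, differed by 0.94 (SE 0.40). Vldlr, a lipoprotein receptor, differed by -0.995 (SE 0.278) with no overlap of the groups, and Dgat2, an enzyme of the last step of triglyceride synthesis, by -0.29 (SE 0.15).

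Droplet coat and lipolysis genes had a median of 0.00 over 17 genes. Abhd5 and Pnpla2, the coactivator and the enzyme that start the breakdown of stored triglyceride, differed by 0.49 (SE 0.24) and 0.29 (SE 0.15). Cavin1 and Cav1, caveolar proteins whose loss causes generalized lipodystrophy, differed by -0.49 (SE 0.20) and -0.65 (SE 0.29). None of the other droplet genes shared the size of the Plin2 difference: the highest value in the list was that of Abhd5.

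Of 12 measured adipokines and mature fat cell genes, 9 had lower means and 6 lay in the lowest 25% of genes by signal. Lep, at a low signal, differed by -0.21 (SE 0.07) and the brighter Retn by -0.36 (SE 0.14), both with no overlap of the groups. Aqp7, a glycerol channel of fat cells, and Adig, a small fat cell protein, differed by 0.06 (SE 0.17) and 0.03 (SE 0.09). Among 9 preadipocyte and progenitor markers the median was -0.18. Icam1 differed by 0.41 (SE 0.18), Cd9 by 0.28 (SE 0.20), F3, the gene of tissue factor, by -0.63 (SE 0.20) and Pdgfrb, a growth factor receptor of mesenchymal precursors, by -0.54 (SE 0.29).

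**Figure D5:**
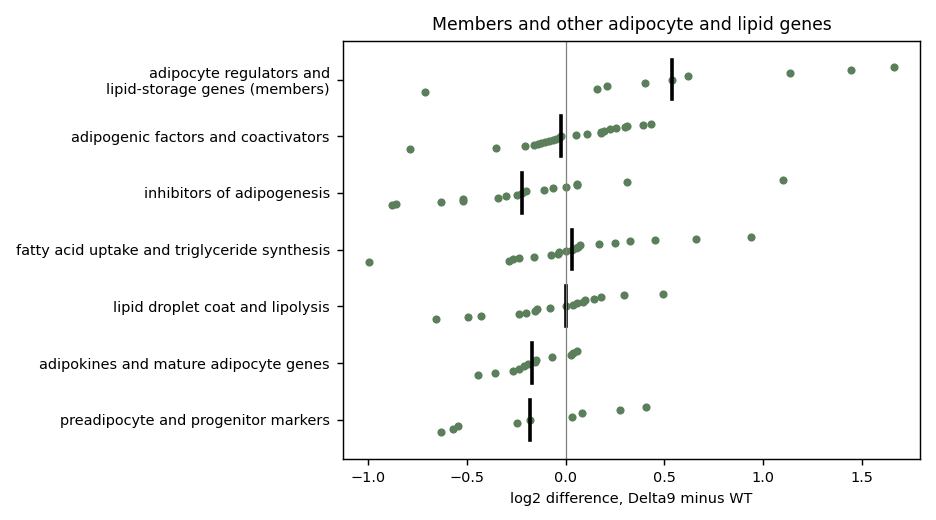
Log2 difference of Delta9 minus WT for the 9 adipocyte regulators and lipid-storage genes and for 6 lists of other adipocyte and lipid genes, each point a gene and each black line the median of its list. The median is 0.54 for the members and between -0.22 and 0.03 for the lists.

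The genes with the nearest profiles over the 6 samples were found by the root mean square difference of centred log2 values, a description with no test. Only genes with a mean signal above the median of all genes were searched. Nearest to Plin2 were Ctsd, the lysosomal protease cathepsin D (0.16), Zdhhc14, a palmitoyltransferase (0.16), and Atp6v1b2, a subunit of the vacuolar proton pump (0.17). Ctsd itself differed by 0.90 (SE 0.18). Nearest to Fabp4 were Cela1, an elastase (0.19), Ifi30, a lysosomal reductase (0.28), and Plin2 (0.30). Nearest to Cd36 were Atp6v0d2, another proton pump subunit (0.35), Dlk1 (0.48) and Clec7a, the myeloid receptor dectin-1 (0.51). For Lpl they were Id2, which blocks helix-loop-helix factors (0.12), Acer3, a ceramidase (0.21), and Etv3, an ETS family repressor (0.21). For Cebpa they were Dnase1l1, a deoxyribonuclease (0.08), Blvrb, a biliverdin reductase (0.09), and Pdxk, the kinase of vitamin B6 (0.10). The genes nearest to Cebpd were Marchf3 (0.08), Armcx2 (0.09) and Atp8b3 (0.09). Pparg had Cd4, Daglb and Pgap1 at 0.19 to 0.20, and Adipoq had Abcb10, Supt16 and Mccc1 at 0.17 to 0.26. Plin2 was thus among the genes nearest to Fabp4, the other member with higher values in every Delta9 sample. Fabp4 was not among the 3 genes nearest to Plin2. The group difference is part of this distance, so 2 genes both higher in Delta9 are brought closer by it.

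RefSeq promoter windows (GRCm38.p6) were found for 7 of the 10 genes, 9 windows in all, and were read over the 250 bases before each start. Fabp4, Cebpd and Lpl are not in that table. Printed here are those of Plin2, the gene of clearest separation with a window, of Cd36, the gene of widest range, and the Pparg window with the most motif matches of its 3. Motif matches on either strand are in capitals: AGGTCA (the nuclear receptor half-site, in 14.0% of 32851 such windows), TTGCNNAA (a C/EBP-like motif, 9.56%), CCAAT (33.8%) and TATAAA (12.4%). The direct repeat of the half-site with 1 base between its copies, which is bound by PPARgamma with its partner RXR, was searched too (0.0335%).
Plin2 (chr4:86670060-86670309, minus strand): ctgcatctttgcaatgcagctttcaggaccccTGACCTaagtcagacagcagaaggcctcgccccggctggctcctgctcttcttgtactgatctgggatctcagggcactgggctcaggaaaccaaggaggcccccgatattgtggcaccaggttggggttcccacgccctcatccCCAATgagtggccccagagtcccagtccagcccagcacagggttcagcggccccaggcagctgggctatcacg
Cd36 (chr5:17835897-17836146, minus strand): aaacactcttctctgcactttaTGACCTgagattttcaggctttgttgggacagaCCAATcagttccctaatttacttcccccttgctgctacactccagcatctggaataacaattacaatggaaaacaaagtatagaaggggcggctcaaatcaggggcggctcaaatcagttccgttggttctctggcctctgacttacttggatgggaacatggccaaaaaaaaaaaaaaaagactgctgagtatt
Pparg (chr6:115421816-115422065, plus strand): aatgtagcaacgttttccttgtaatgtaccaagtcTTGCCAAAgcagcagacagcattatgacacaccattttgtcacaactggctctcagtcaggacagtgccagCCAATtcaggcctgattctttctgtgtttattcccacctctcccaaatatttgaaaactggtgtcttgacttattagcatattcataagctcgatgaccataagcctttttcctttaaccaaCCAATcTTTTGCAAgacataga
In the Plin2 window, AGGTCA lay on the opposite strand with its first printed base 218 bases before the start, and CCAAT 73 bases before it. The Cd36 window held the same motifs in the same orientation, at 228 and 195 bases. The Pparg window held TTGCNNAA at 215 bases and, on the opposite strand, at 16 bases, and CCAAT at 144 and 22 bases. The direct repeat was not in any of the 9 windows. A match is a description of the sequence and does not show that a factor binds there.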

How the data were processed

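The authors' deposited table gives log2 probe set signals from 6 Affymetrix arrays (Trizol RNA, biotin label, per the labels' protocols). Neither summarisation nor scaling is stated in the sources used here. A log2 scale was inferred from the range. Array medians lay between 3.36 and 3.43. Gene names came from the platform annotation, and several-symbol and control probe sets were left out, which gave 18193 genes.

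Delta9 minus WT was fitted over all genes with limma 3.58.1 in R 4.3.3 (lmFit, eBayes with trend), with no filter and no pseudocount, and p-values were adjusted by Benjamini-Hochberg. The code was tested on simulated data. The genes and lists were chosen with earlier results of these data known. Named are all members and, of each list, genes past the threshold and the 2 of lowest p in each direction; Pparg and members spanning over 1 log2 got their 3 nearest profiles. Other genes named, such as Cidec, are markers. The macrophage covariate, normalization, filters, probe set choice, variance model, array weights, replicate number and left-out samples were alternatives. Same-numbered samples' deviations from their group means correlated at -0.40, 0.17 and -0.43 over genes. The main fit did not pair samples by number, although such correlations cannot show that they are unpaired. Figures were drawn with matplotlib 3.10.9.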

Additional observations from a re-analysis of the deposited data

How the results depend on the processing

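None of the 9 adipocyte genes passed in the fit of all samples, and this count was 1 (Plin2) with array weights, where 139 of all genes passed against 11, 3 at an unadjusted p under 0.05, 2 (Plin2 and Cebpd) with the spike-in split as a block and 1 (Plin2) among the 4 arrays with more spike-in signal, the last 2 alternatives chosen after seeing the data. Leaving out 1 sample at a time gave 0 to 1, with Plin2 passing without Delta9 replicate 3. For the 97 other adipocyte and lipid genes the count of 0 was 12 at an unadjusted p under 0.05 and 1 (Ebf1) among those 4 arrays. With the replicate number as a block, the count was 0 for both groups of genes and 0 over all genes; the adjusted p of Fabp4 was then 0.582 and that of Plin2 0.595 (limma). The alternatives gave 179 values of the member differences. Many of these could not change, because thresholds, variance models, the dim filter and the blocks leave the difference itself as it was. The sign was kept in 170 of the 179 values. Among the 9 others, Lpl turned with array weights (-0.13) and with the macrophage covariate (-0.86). Lpl also turned without Delta9 replicate 3 (-0.31) and without WT replicate 3 (-0.21). With any other single sample left out Lpl kept its sign, at up to 0.61. Cebpa and Cd36 turned with the macrophage covariate (-0.078 and -0.13). Pparg turned without Delta9 replicate 3 (-0.15) and among those 4 arrays (-0.073), and Adipoq without Delta9 replicate 1 (-0.0037). The cause was not tested. With single samples left out Pparg ran from -0.15 to 0.93 and Adipoq from -0.0037 to 0.77. Fabp4, Plin2, Cebpd and Cebpb kept their sign in every alternative run. Dim probe sets, such as those of Adipoq and Pparg, limit what can be read at low signal.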
